A study of Mus musculus with 16 samples.

Results

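A group of 10 genes of the endoplasmic reticulum (ER) unfolded protein response was followed on microarrays of brown adipose tissue (BAT) and gonadal white adipose tissue (gWAT). The members are Hspa5, Hsp90b1, Xbp1, Ern1, Atf6, Dnajb9, Herpud1, Edem1, Sdf2l1 and Eif2ak3. They were chosen by name for their role, with earlier results of these data known, and are 10 of the 22911 genes that had a named probe. All 10 passed the filter on dim probes in every comparison, and each gave a signal well above background on all 16 arrays. The 16 arrays formed 4 groups of 4, from BAT and gWAT of male C57BL/6NCrSlc mice that all carried floxed Pgam1 alleles. Control mice were littermates without Cre (Adipoq-Cre-, Pgam1 flox/flox), called WT in the labels, and Adipo-Pgam1 KO mice carried Cre under the adiponectin promoter (Adipoq-Cre+, Pgam1 flox/flox). This Cre is used to delete genes in adipocytes, and both tissues also hold other cells. The mice were 16 weeks old, except that replicate 4 of the KO group in both tissues was 14 weeks old. Pgam1 encodes the glycolytic enzyme phosphoglycerate mutase 1, and the question was how its loss from adipocytes bears on transcripts of brown and white fat.

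The ER folds secreted and membrane proteins, and misfolded protein in its lumen is sensed by 3 membrane proteins. IRE1α (gene Ern1) cuts the mRNA of Xbp1 so that an active transcription factor can be made, PERK (Eif2ak3) phosphorylates eIF2α and slows translation while favouring ATF4, and ATF6 (Atf6) is cleaved to release a transcription factor. Their output includes the chaperone BiP (Hspa5), which also holds the sensors inactive, the chaperone GRP94 (Hsp90b1), the BiP partner ERdj4 (Dnajb9), the chaperone complex component SDF2L1, and EDEM1 and HERPUD1 of ER-associated degradation. In adipocytes, which secrete adipokines and expand with nutrient load, this response is known to be engaged in obesity. The arrays measure mRNA, so sensor phosphorylation, Xbp1 splicing and ATF6 cleavage were not measured.

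Several of these genes are known to be driven through short promoter elements, and the letters of 3 such elements were sought on both strands of the RefSeq promoter windows (GRCm38.p6, 250 bases before to 50 after each start site). The ER stress response element (ERSE) was written as CCAAT, any 9 bases, then CCACG, the second form (ERSE-II) as ATTGG, any base, then CCACG, and the unfolded protein response element (UPRE) as TGACGTGG. Of the 10 genes, 9 had an entry and Atf6 had none. ERSE was found in the windows of Hspa5 and Hsp90b1, ERSE-II in that of Herpud1, and UPRE in none of the 9. Over all 32851 promoter windows of the table, 0.119% held ERSE, 0.0365% held ERSE-II and 0.676% held UPRE. The 250 bases before the start site are printed for the 3 genes with a match, with the matched stretch in capitals, because these are the members with letters of a known element, and no matches overlapped. Bases are counted back from the start site, and the coordinates are those of the printed stretch. The ERSE of Hspa5 spans -65 to -47 (chr2:34771840-34772089, plus strand), the pair in Hsp90b1 spans -212 to -194 and, on the opposite strand, -107 to -89 (chr10:86705445-86705694, minus strand), and the ERSE-II of Herpud1 spans -52 to -42 (chr8:94386179-94386428, plus strand).
Hspa5: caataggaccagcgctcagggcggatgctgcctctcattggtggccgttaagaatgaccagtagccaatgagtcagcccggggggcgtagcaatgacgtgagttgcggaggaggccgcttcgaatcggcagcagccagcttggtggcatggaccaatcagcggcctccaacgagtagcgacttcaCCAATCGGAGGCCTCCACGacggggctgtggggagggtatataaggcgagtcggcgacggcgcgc
Hsp90b1: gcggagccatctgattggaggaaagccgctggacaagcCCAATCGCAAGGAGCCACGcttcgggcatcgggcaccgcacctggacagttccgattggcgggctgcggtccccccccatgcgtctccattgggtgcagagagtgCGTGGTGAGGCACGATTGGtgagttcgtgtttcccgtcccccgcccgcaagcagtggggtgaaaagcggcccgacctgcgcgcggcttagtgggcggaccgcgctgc
Herpud1: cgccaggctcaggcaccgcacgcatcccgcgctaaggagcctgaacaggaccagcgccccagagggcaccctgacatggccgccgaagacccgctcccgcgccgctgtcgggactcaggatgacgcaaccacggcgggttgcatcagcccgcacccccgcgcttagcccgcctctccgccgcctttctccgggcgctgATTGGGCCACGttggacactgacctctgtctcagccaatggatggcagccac
A match is a description of letters and does not show that a factor was bound.

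The targeted gene was checked first. Levels are the log2 of the array signal over that array's 75th percentile, so that a value of 0 is the 75th percentile. Pgam1 read 7.94, 7.93, 8.07 and 7.82 in BAT of the 4 control mice and 6.20, 6.13, 6.03 and 6.43 in BAT of the 4 KO mice, a fall of 1.74 on the log2 scale (SE 0.11, adjusted p = 1.11e-05). In gWAT it read 5.07, 5.15, 5.67 and 5.56 on control arrays and 6.50, 6.42, 6.38 and 5.95 on the arrays labelled Adipo-Pgam1 KO, which is higher by 0.95 (SE 0.19, adjusted p = 0.0139) and goes against the label. The brown adipocyte marker Cidea read 2.19 to 3.20 on gWAT control arrays and 5.51 to 6.99 on the arrays labelled KO, and Ucp1 was well above background on none of the 4 controls and on 3 of the 4 arrays labelled KO. The gWAT groups are named by their labels throughout, and every gWAT direction rests on them. Signals at the 75th percentile ran from 401.3 to 451.3 on BAT control arrays, 650.2 to 916.2 on BAT KO arrays, 570.3 to 855.3 on gWAT control arrays and 656.8 to 831.3 on the gWAT arrays labelled KO. The arrays lay on 3 slides, and each tissue's KO arrays shared a slide with 1 control array only, so within-slide values rest on that array. The gWAT arrays labelled KO and gWAT control replicate 4 were scanned on day 2, and all other arrays on day 1. Within gWAT, slide and scan day therefore cannot be told apart. Precision is limited by the number of arrays.

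Marker lists of other cell types were read alongside, as summed levels over the 75th percentile. In BAT the sum of 9 macrophage markers ran from 27.5 to 39.5 in controls and 86.5 to 132 in KO mice (6 of 9 higher), that of 7 fibroblast markers from 129 to 176 and 236 to 340 (6 of 7 higher), that of 7 adipocyte markers from 2444 to 2655 and 822 to 1167 (7 of 7 lower), and that of 8 brown adipocyte markers from 3269 to 3523 and 1141 to 1860 (7 of 8 lower). Skeletal muscle markers summed to 0.402 to 1.08 in BAT controls and to 80.5, 0.860, 14.3 and 1.43 on KO arrays 1 to 4, so that KO replicates 1 and 3 stood apart. B and plasma cell markers summed to 0.498, 0.320, 0.406 and 4.40 on BAT control arrays 1 to 4 and to 3.07 to 4.98 on KO arrays (2 of 3 tested higher), so that control replicate 4 lay among the KO arrays, and 3 of the 8 markers were well above background on no control array. The 5 endothelial markers did not pass the test in either tissue. Of the tested T cell, mesothelial, epididymal and exocrine pancreas markers, 2 were higher and 3 lower in BAT of KO mice, and 1 was higher in gWAT. In gWAT brown adipocyte markers read 15.0 to 23.7 in controls and 67.5 to 179 on the arrays labelled KO (3 of 6 tested higher), and macrophage markers read 68.4 to 96.6 and 70.4 to 212 (2 of 9 higher). Skeletal muscle markers in gWAT read 3.29 to 24.3 in controls and 29.7 to 58.1 on the arrays labelled KO, with 0 of 4 past the test. Acta1 made up most of that sum, with mean log2 levels of 3.28 in controls and 5.48 on the arrays labelled KO. The differences of the other 3 tested muscle markers were negative. All 8 brown adipocyte markers were higher in BAT than in gWAT of controls, as the tissue labels say. In bulk tissue fewer cells of a type and less RNA per cell cannot be told apart, and the part that any of these markers has in the results that follow was not tested.

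In BAT of Adipo-Pgam1 KO mice, 8 of the 10 genes were higher than in controls and none was lower, where 27.5% of the 14280 genes tested were higher and 34% were lower (scaled to Actb and Rplp0 instead, 5 were higher, Dnajb9 was lower, and Eif2ak3 turned to -0.04). The median difference of the 10 was 1.08 on the log2 scale against -0.08 for all genes tested. The sensor Ern1 moved most, by 5.97-fold, and the sensor Eif2ak3 least among those past the threshold, by 1.46-fold. Dnajb9 and Herpud1 did not pass. The groups did not overlap for the same 8 genes, as for 57.1% of all genes tested.

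**Figure D1:**
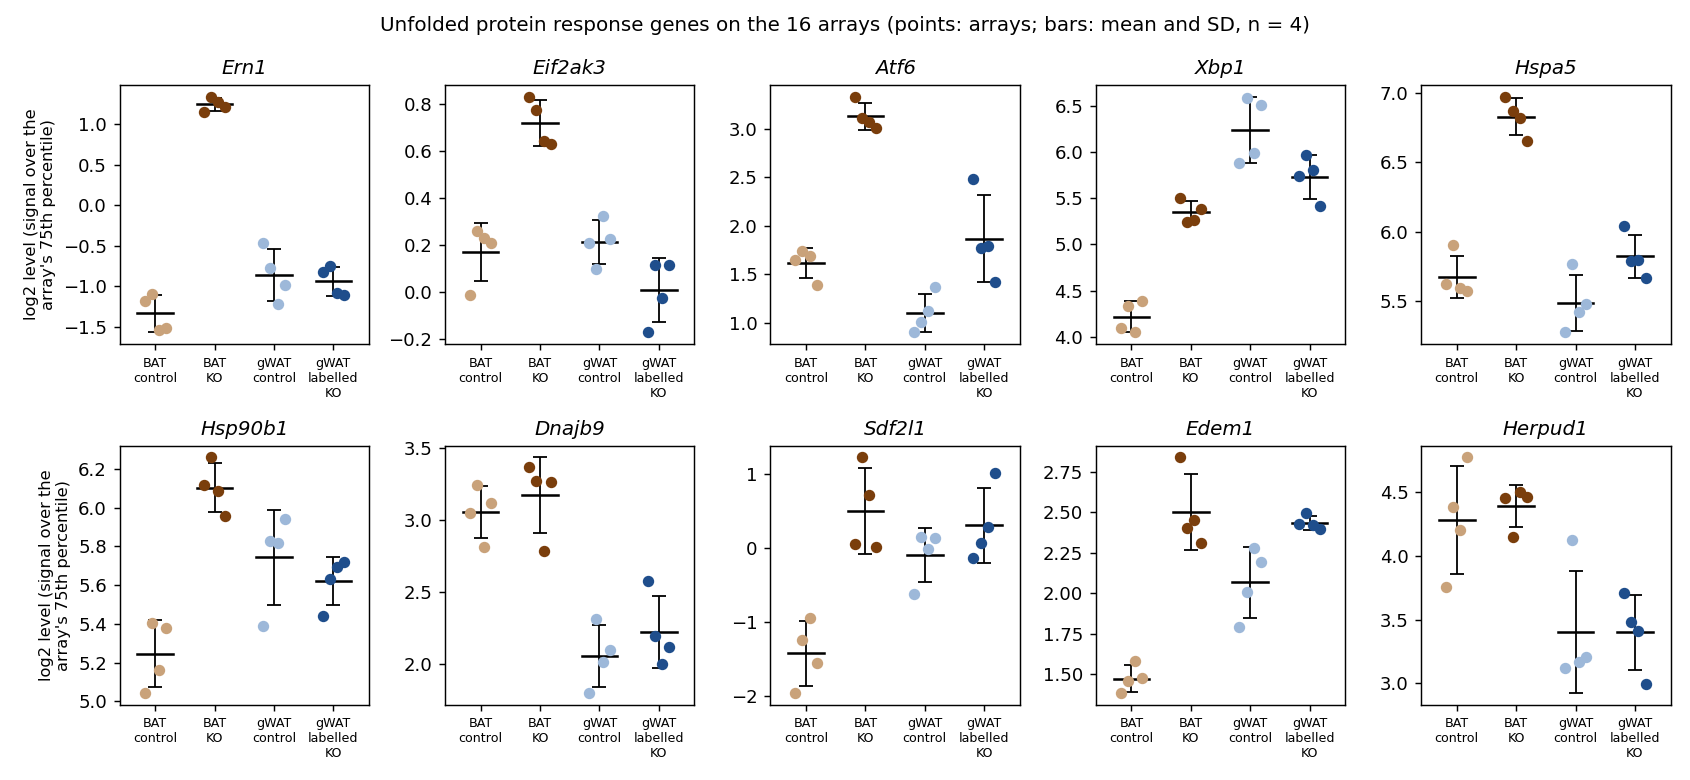
Level of each of the 10 genes on every array (y axis, log2 of signal over the array's 75th percentile, a scale of its own for each gene), by tissue and genotype label. Points are arrays, and bars are the mean and SD of 4 arrays. In BAT the KO arrays lie above every control array for all genes but Dnajb9 and Herpud1. In gWAT the groups stand apart for Atf6 and Edem1.

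Among the sensors, Ern1 read -1.18, -1.10, -1.54 and -1.52 in BAT of controls and 1.15, 1.34, 1.28 and 1.21 in BAT of KO mice. Every control array lay below the 75th percentile and every KO array above it (difference 2.58, SE 0.13, adjusted p = 4.03e-06). Atf6 read 1.64, 1.74, 1.69 and 1.39 in controls and 3.33, 3.11, 3.07 and 3.01 in KO mice. The difference was 1.51 (SE 0.12, adjusted p = 1.90e-05), or 2.86-fold, with no overlap. Eif2ak3 read -0.01, 0.26, 0.23 and 0.21 in controls and 0.83, 0.77, 0.64 and 0.63 in KO mice. It rose by 0.55 (SE 0.10, adjusted p = 0.00152), the smallest of the 3 sensor differences, although its groups did not overlap either. Xbp1, the transcription factor downstream of IRE1α, read 4.10, 4.34, 4.05 and 4.39 in controls against 5.50, 5.24, 5.26 and 5.38 in KO mice. It rose 2.18-fold (log2 difference 1.13, SE 0.12, adjusted p = 6.61e-05), and its other probes gave 0.95 and 1.02.

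Among the chaperones, BiP (Hspa5) read 5.62, 5.90, 5.59 and 5.58 in BAT of controls and 6.97, 6.87, 6.82 and 6.65 in BAT of KO mice. It rose 2.23-fold (log2 difference 1.16, SE 0.11, adjusted p = 5.65e-05), and its 3 probes gave differences from 1.04 to 1.16. GRP94 (Hsp90b1) read 5.04, 5.41, 5.16 and 5.38 in controls and 6.12, 6.26, 6.08 and 5.96 in KO mice. The difference was 0.86 (SE 0.12, adjusted p = 0.000298), or 1.81-fold, and it did not pass with Actb and Rplp0 scaling (0.27, adjusted p = 0.124). Sdf2l1 read -1.96, -1.25, -0.94 and -1.56 in controls and 0.05, 1.22, 0.71 and 0.01 in KO mice. Its rise of 1.93 (SE 0.31, adjusted p = 0.000759) was next in size to that of Ern1 and had the largest SE of the 10. Dnajb9, the BiP partner, read 3.05, 3.25, 2.81 and 3.12 in controls and 3.37, 3.27, 2.79 and 3.27 in KO mice. The difference of 0.12 did not pass (adjusted p = 0.530, unadjusted 95% interval -0.23 to 0.47), and its second probe gave 0.14.

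The members of ER-associated degradation differed from each other in BAT. Edem1, which helps to direct misfolded glycoproteins to degradation, read 1.38, 1.46, 1.58 and 1.47 in controls and 2.84, 2.40, 2.46 and 2.31 in KO mice. It rose 2.04-fold (log2 difference 1.03, SE 0.13, adjusted p = 0.000175), its second probe gave 0.75, and with Actb and Rplp0 scaling it fell just short (0.44, adjusted p = 0.0527). Herpud1, a membrane component of the degradation complex, read 3.75, 4.39, 4.21 and 4.77 in controls and 4.45, 4.15, 4.51 and 4.46 in KO mice. Control arrays lay both above and below the KO arrays, the difference was 0.11 (adjusted p = 0.654, unadjusted 95% interval -0.35 to 0.58), and its second probe gave -0.23. Of the promoters printed above, those of Hspa5 and Hsp90b1 with ERSE belong to genes that rose, and that of Herpud1 with ERSE-II to a gene that did not pass. Among members with a promoter entry and no match, Xbp1, Ern1, Edem1, Sdf2l1 and Eif2ak3 rose as well, and Dnajb9 did not pass. A link between the elements and the differences was not tested.

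The count of 8 in BAT was the same without any single array. It was also 8 without both KO arrays that were high in skeletal muscle markers, where Ern1 rose by 2.61, Hspa5 by 1.09 and Sdf2l1 by 2.04. Within the slide that held all KO arrays and control replicate 4, the same 8 genes passed, with differences from 0.51 for Eif2ak3 to 2.76 for Ern1, and Herpud1 read -0.38 (adjusted p = 0.241). Another scaling moved the whole table in BAT: the median of all genes went from -0.08 to 0.46 with spike-in probes, where all 10 members were higher, and to -0.67 with Actb and Rplp0. Calls in the higher direction were 44.8% of all calls in BAT by the 75th percentile, 79.7% by spike-in probes and 17.7% by Actb and Rplp0. The members' median stood 1.16 above that of all genes under each of these 3 scalings, since they shift every gene alike.

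**Figure D2:**
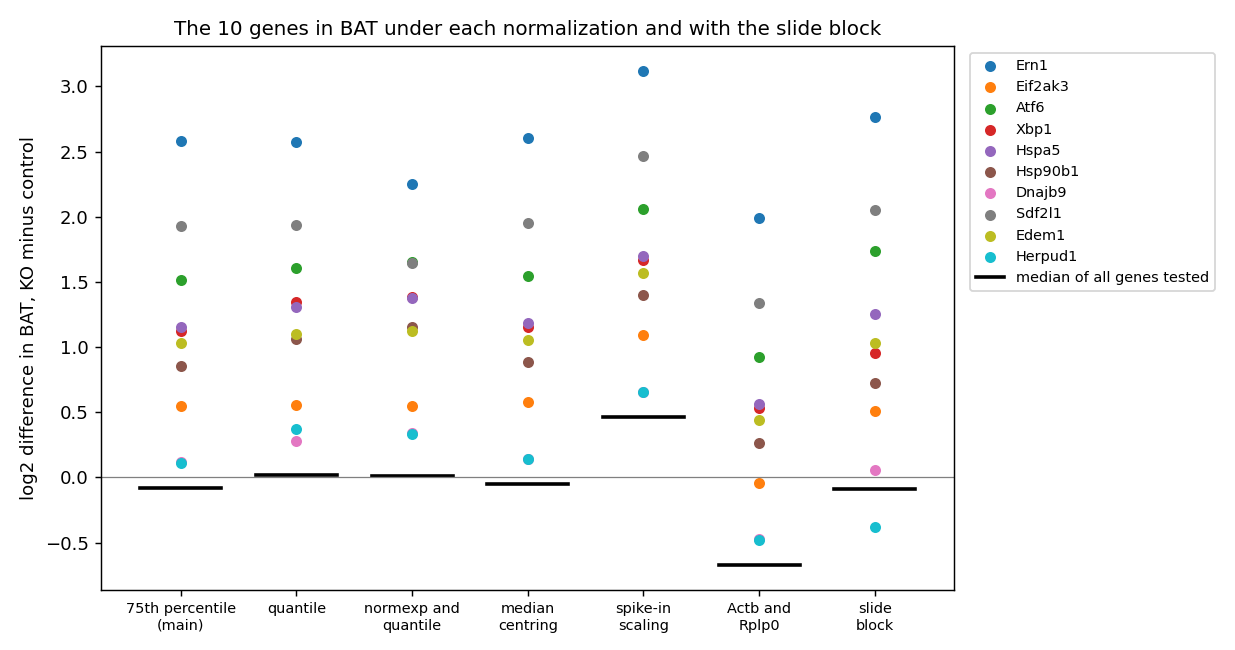
Log2 difference in BAT, KO minus control (y axis), of each of the 10 genes under 6 normalizations and with the slide as a block (x axis). Coloured points are genes and black bars the median of all genes tested, which reads -0.08 by the 75th percentile, 0.46 by spike-in probes and -0.67 by Actb and Rplp0, where Eif2ak3, Dnajb9 and Herpud1 lie below 0.

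In gWAT only Atf6 passed the threshold, higher on the arrays labelled KO, and no member was lower, where 9.99% of the 14149 genes tested were higher and 7.85% lower. Atf6 read 0.908, 1.003, 1.13 and 1.37 on control arrays and 2.49, 1.78, 1.79 and 1.42 on the arrays labelled KO. The groups did not overlap, the difference was 0.77 (SE 0.22, adjusted p = 0.0469), or 1.70-fold, and leaving out any single array but KO replicate 4 lifted the adjusted p to between 0.0545 and 0.110. Within the slide shared with control replicate 4 the difference was 0.50 (adjusted p = 0.509). Groups stood apart for Atf6 and Edem1, against 24.1% of all genes tested. At an unadjusted p under 0.05, 4 of the 10 passed (Atf6, Edem1, Xbp1 and Hspa5), against 34.7% of all genes tested. The median of the 10 was 0.08, against 0.05 for all genes tested.

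Edem1 read 1.79, 2.01, 2.28 and 2.19 on gWAT control arrays and 2.43, 2.50, 2.42 and 2.40 on the arrays labelled KO. Its difference of 0.37 did not pass (adjusted p = 0.0890), although every labelled KO array lay above every control array. The second probe of Edem1 gave 0.61 in gWAT, against 0.75 in BAT. By probe means the gWAT difference of Edem1 was 0.49 (limma adjusted p = 0.0585). Xbp1 read 5.88, 6.58, 5.99 and 6.51 on controls and 5.74, 5.97, 5.80 and 5.41 on the arrays labelled KO. The difference of -0.51 did not pass (adjusted p = 0.112), but did with quantile normalization (-0.82, adjusted p = 0.0162), and the other 2 probes gave -0.19 and -0.15. Hspa5 read 5.28, 5.77, 5.42 and 5.48 on controls and 6.04, 5.79, 5.79 and 5.67 on the arrays labelled KO, with a difference of 0.34 (adjusted p = 0.137). Sdf2l1 gave 0.40 (adjusted p = 0.339), with values from -0.63 to 0.14 on controls and -0.14 to 1.02 on the arrays labelled KO. That difference was 0.16 without the array labelled KO replicate 4 and 0.22 without control replicate 1. The remaining differences were -0.21 for Eif2ak3, -0.12 for Hsp90b1, -0.08 for Ern1, 0.17 for Dnajb9 and -0.01 for Herpud1, whose second probe gave 0.43. For Ern1, with the largest difference in BAT, the unadjusted 95% interval in gWAT ran from -0.49 to 0.33.

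**Figure D3:**
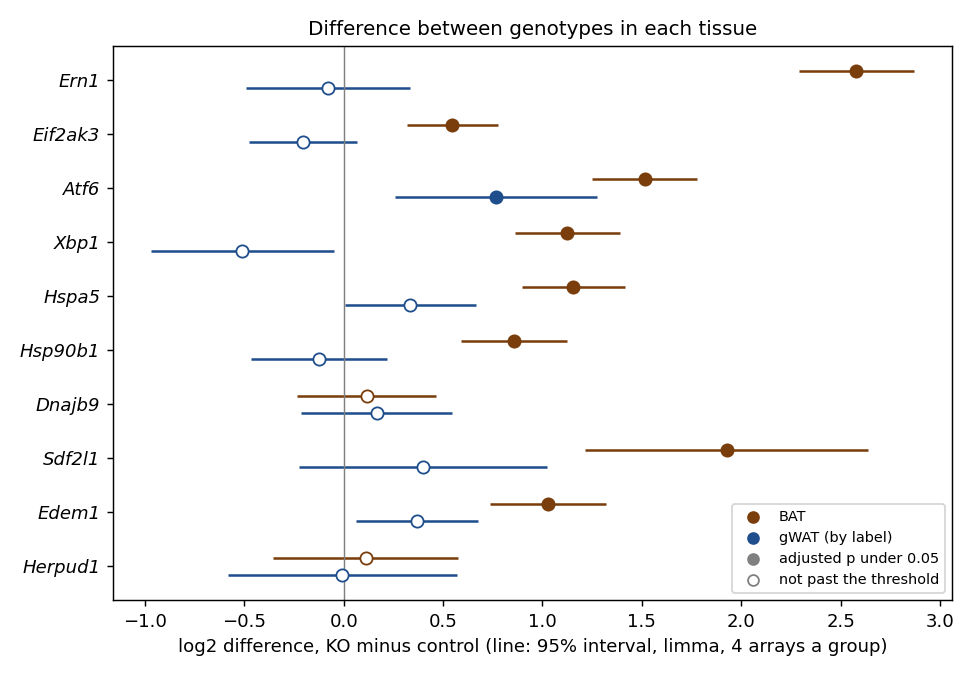
Log2 difference between genotype labels (x axis, KO minus control) for each of the 10 genes (y axis) in BAT and in gWAT. Points are limma estimates from 4 arrays a group, filled where the adjusted p was under 0.05, and lines are unadjusted 95% intervals. In BAT 8 points are filled, from 0.55 for Eif2ak3 to 2.58 for Ern1, and with Actb and Rplp0 scaling Eif2ak3 turned to -0.04. In gWAT Atf6 is filled at 0.77.

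The difference between the tissues was tested as an interaction over all 16 arrays, the gWAT difference minus the BAT difference. It passed for 8 of the 10 genes, all with the more positive difference in BAT, where 21% of the 14820 genes tested lay in that direction and 27.4% in the other. The interaction was -2.66 for Ern1 (adjusted p = 2.77e-06), -1.63 for Xbp1 (9.81e-05), -1.53 for Sdf2l1 (0.0111), -0.98 for Hsp90b1 (0.000686), -0.82 for Hspa5 (0.00178), -0.75 for Eif2ak3 (0.000676), -0.75 for Atf6 (0.0278) and -0.66 for Edem1 (0.00744). All of these but Atf6 were higher in BAT of KO mice while their gWAT differences did not pass, and Atf6 passed in both tissues. With Actb and Rplp0 scaling the BAT differences of Hsp90b1 (0.27, adjusted p = 0.124), Eif2ak3 (-0.04, adjusted p = 0.797) and Edem1 (0.44, adjusted p = 0.0527) did not pass either. Dnajb9 (0.05, adjusted p = 0.880) and Herpud1 (-0.12, adjusted p = 0.801) gave no interaction past the threshold. With the slide as a block Sdf2l1 (-1.88, adjusted p = 0.0889) and Edem1 (-0.78, adjusted p = 0.0743) did not pass. Edem1 did not pass by probe means either, and with median centring neither Edem1 nor Atf6 passed. With Actb and Rplp0 scaling only Ern1 and Xbp1 passed, and without both muscle-high KO arrays Atf6 did not (-0.68, adjusted p = 0.0944). The call of Atf6 was also lost without BAT control replicate 4, BAT KO replicate 1, gWAT control replicate 4 or the gWAT arrays labelled KO replicates 2 or 3, each in turn (adjusted p from 0.0503 to 0.0560).

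In control mice the tissues themselves differed in these genes, as 3 of the 10 were higher in BAT than in gWAT and 5 were lower, where 37% of the 14304 genes tested were higher and 30.7% lower. Xbp1 differed most, with control arrays at 4.05 to 4.39 in BAT and 5.88 to 6.58 in gWAT, and was 4.05-fold lower in BAT (log2 difference -2.02, SE 0.17, adjusted p = 8.24e-08). Sdf2l1 was 2.52-fold lower (-1.33, SE 0.31, adjusted p = 0.00158). Edem1 (-0.59), Hsp90b1 (-0.50) and Ern1 (-0.47) were lower as well. Dnajb9 was 2.004-fold higher in BAT (1.003, SE 0.16, adjusted p = 6.64e-05), and Herpud1 (0.88) and Atf6 (0.52) were higher too. Hspa5 (0.19, adjusted p = 0.199) and Eif2ak3 (-0.04, adjusted p = 0.722) did not pass. Of the genes lower in BAT, Ern1 lost its call without BAT control replicate 3 (adjusted p = 0.0501) or gWAT control replicate 1 (0.0542), and of those higher Atf6 lost it without BAT control replicate 2 (0.0545), gWAT control replicate 1 (0.0590) or gWAT control replicate 2 (0.0502). Most control arrays of the tissues lay on different slides, and with the slide as a block Hsp90b1 (-0.30, adjusted p = 0.249) and Atf6 (0.38, adjusted p = 0.295) did not pass. With Actb and Rplp0 scaling Edem1, Hsp90b1 and Ern1 did not pass, and Hspa5 was higher in BAT. Atf6 did not pass with spike-in scaling or with normexp and quantile normalization. Ern1 did not pass in a fit of the control arrays alone, and Ern1 and Herpud1 did not by the methods' t-test. For Xbp1, KO arrays in BAT reached 5.24 to 5.50, still under the lowest gWAT control array at 5.88. For Ern1 the order was otherwise: KO arrays in BAT (1.15 to 1.34) lay above all other arrays, the highest of which read -0.47.

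The 5 further lists of ER genes that hold none of the 10 were described by their counts, with the named genes taken as the strongest in each direction. Beside these counts, 27.5% of all genes tested in BAT were higher and 34% lower. In gWAT 9.99% were higher and 7.85% lower. No list was tested as a set. Of 20 ER chaperones and folding enzymes tested in BAT, 11 were higher, 2 were lower and 7 did not pass, with a median of 0.40. Ero1a, the oxidase that recharges protein disulfide isomerase, went from 2.49 to 2.65 on control arrays to 4.98 to 6.35 on KO arrays, a 9.64-fold rise (log2 difference 3.27, SE 0.27, adjusted p = 2.57e-05). Manf, an ER-resident secreted factor, rose by 1.30 (adjusted p = 4.27e-05). Cnpy2 (-1.36) and the prolyl isomerase Fkbp2 (-0.69) fell. In gWAT 2 of the 20 were higher and none lower by limma (Ero1a by 0.97 and Dnajb11 by 0.41), with a median of 0.04.

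The ATF4 arm was read through a list of 14 genes, labelled PERK and ATF4 output. The list also holds genes that are not outputs of the arm. These are the eIF2α kinases Eif2ak1, Eif2ak2 and Eif2ak4, eIF2α itself (Eif2s1) and the phosphatase subunit Ppp1r15b. In BAT 8 of the 14 were higher and 2 lower, with a median of 0.71, where 27.5% of all genes tested were higher and 34% lower. Trib3, a pseudokinase induced by ATF4 and CHOP, read 1.69 to 2.57 in controls and 6.18 to 6.87 in KO mice, a 19.8-fold rise (log2 difference 4.30, SE 0.23, adjusted p = 5.68e-06). Chac1, which degrades glutathione, rose 14.4-fold (3.85, SE 0.40, adjusted p = 7.00e-05). The eIF2α phosphatase subunit Ppp1r15b (-0.71) and the eIF2α kinase Eif2ak1 (-0.61) fell. In gWAT 2 of 14 were higher and none lower, where 9.99% of all genes tested were higher and 7.85% lower. The 2 were Trib3 by 2.85 (adjusted p = 0.00474) and Ddit3, which encodes CHOP, by 1.64 (adjusted p = 0.0104).

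Of 21 genes for the translocon, signal peptide processing and export from the ER, 14 were higher and 3 lower in BAT, with a median of 0.46. For this list and the next 2, the shares over all genes tested were 27.5% higher and 34% lower in BAT. In gWAT they were 9.99% and 7.85%. The coat component Sec24d rose 4.27-fold (log2 difference 2.10, adjusted p = 1.60e-05) and the retrieval receptor Kdelr3 by 1.44 (adjusted p = 0.0101), while Sec62 (-0.57) and the signal peptidase subunit Spcs1 (-0.50) fell. In gWAT 2 of 21 were higher (Srprb by 0.69 and Sec23b by 0.53) and Sec63 was lower (-0.42). Of 18 genes of ER-associated degradation, 4 were higher and 4 lower in BAT, and the median of -0.10 was close to that of all genes. Derl3 read -4.52 to -1.97 on control arrays, of which 3 of 4 were well above background, and 0.55 to 1.70 on KO arrays (log2 difference 4.53, SE 0.50, adjusted p = 9.81e-05). It entered the test through the KO group, and the size of its difference rests in part on a control array whose signal was not well above background. Derl3 is also on the plasma cell marker list. Sel1l, the scaffold of the HRD1 ligase, rose by 0.53, and the ligase Rnf5 (-1.18) and Nploc4 (-0.55) fell. In gWAT 3 of the 18 were higher and none lower, led by Derl3 (2.28, adjusted p = 0.00264) and Derl1 (1.58, adjusted p = 0.00312). Of 16 regulators of the sensors, 7 were higher and 3 lower in BAT, with a median of 0.03. Casp12, an ER-associated caspase, rose by 2.39 and Wfs1, an ER membrane protein that restrains ATF6, by 2.04, while the kinase Map3k5 (-0.74) and Nfyc, a subunit of the CCAAT-binding factor NF-Y, (-0.62) fell. In gWAT 3 of the 16 were higher and none lower, led by Wfs1 (0.93) and Tmbim6 (0.80).

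**Figure D4:**
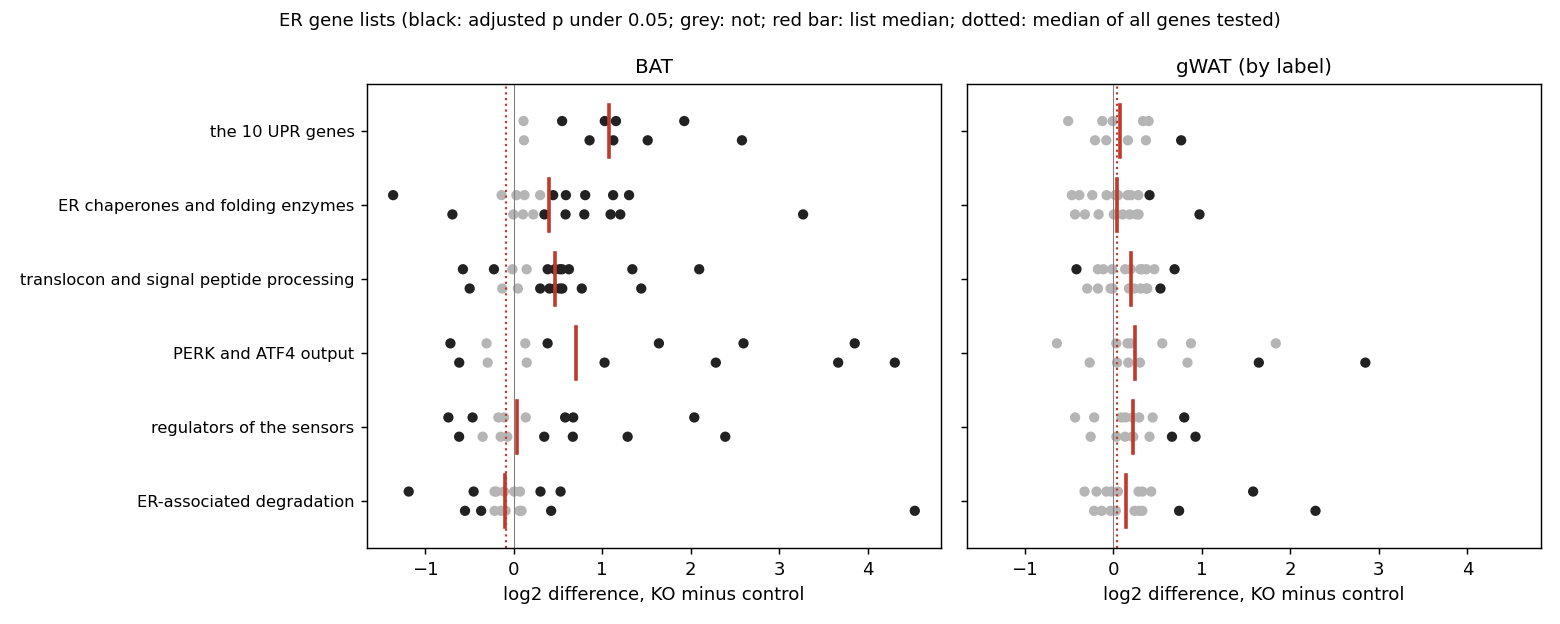
Log2 difference, KO minus control by label (x axis), of every tested gene of the 10 UPR genes and of 5 other ER gene lists (y axis), in BAT and gWAT. Black points had an adjusted p under 0.05, red bars are list medians and the dotted line is the median of all genes tested. In BAT the medians run from -0.10 for ER-associated degradation to 1.08 for the 10 UPR genes, and in gWAT from 0.04 to 0.25.

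The genes whose levels ran closest to Hspa5 across the 16 arrays were sought among 12360 genes well above background on every array, by the root mean square difference of levels centred on each gene's mean. They were Manf (0.161), Creg1 (0.190), Pwp2 (0.199), Rbmx2 (0.201) and Xpo4 (0.202), where the median gene was at 0.702. Manf averaged 1.68 and 2.99 in BAT of control and KO mice and 1.67 and 1.93 in gWAT. Among the other members Atf6 was nearest to Hspa5 (0.308, rank 119), then Eif2ak3 (rank 359) and Hsp90b1 (rank 592), and Sdf2l1 (rank 7621) and Xbp1 (rank 9954) were the farthest. These ranks describe the same 16 arrays, which share tissue and genotype, and carry no test.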

How the data were processed

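RNA of BAT and gWAT was hybridized to one-colour Agilent SurePrint G3 mouse arrays (4 per group). The authors deposited, per the labels and file headers, scanner files with processed signal intensity from Feature Extraction 10.7.1.1, and a value table of signals normalized in GeneSpring GX on a linear scale, whose log2 differed from the scaling used here by a constant of at most 0.00504 (SD at most 0.00363). Here log2 of the deposited processed signal intensity minus log2 of each array's 75th percentile was taken, after leaving out control spots and outlier spots (52 to 98 per array), and no spot was saturated. Of 35886 probes with a RefSeq accession, 91.9% were named through RefSeq (GRCm38.p6), for 22911 genes, while the array was designed on an earlier build whose coordinates were not used. The brightest probe stood for a gene. Genes entered a test if the scanner flagged all 4 arrays in at least 1 compared group as well above background. limma 3.58.1 (R 4.3.3) was fitted to the 8 arrays of a tissue, or to all 16 for the interaction and the tissue comparison, with Benjamini-Hochberg adjustment over all genes tested and a threshold of 0.05. All adjusted p-values are from limma. The procedure was tested on simulated data.

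The 10 members and all lists (5 ER lists, and markers of adipocytes, brown adipocytes, macrophages, fibroblasts, endothelial, T, B and plasma, mesothelial, skeletal muscle, epididymal and exocrine pancreas cells) were chosen with earlier results of these data known. All 10 members were named, and in each ER list and tissue the 2 genes with the most positive and the 2 with the most negative difference among those past the threshold. The labels do not say which BAT and gWAT samples share a mouse, so p-values measure the spread between these samples. Alternatives were quantile normalization, normexp (offset 50, on median spot signals, as the files hold no mean signal), median, spike-in (7 probes) and Actb and Rplp0 scaling, no filter, probe means, slide and replicate blocks, the methods' t-test and leaving out arrays. Leaving out both muscle-high KO arrays was chosen after seeing the data.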

Additional observations from a re-analysis of the deposited data

Results flagged for a closer look

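Within groups of 4 arrays, 4 values lay far from the other 3 of their group, of 147 groups tested, where chance flags about 1 in 20. Hspa5 read 5.90 on BAT control replicate 2 and 5.58 to 5.62 on the other 3. Dnajb9 read 2.79 on BAT KO replicate 3 and 3.27 to 3.37 on the other 3. Herpud1 read 4.15 on BAT KO replicate 2 against 4.45 to 4.51, and 4.12 on gWAT control replicate 2 against 3.12 to 3.21. Without the array in question the BAT difference was 1.23 for Hspa5 (adjusted p = 0.000135), 0.25 for Dnajb9 (0.129) and 0.19 for Herpud1 (0.488), and the gWAT difference of Herpud1 was 0.23 (0.442), so that no call changed.

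The interaction of genotype label and tissue passed for 8 genes, which all differed more positively in BAT: Hspa5 (-0.82), Hsp90b1 (-0.98), Xbp1 (-1.63), Ern1 (-2.66), Atf6 (-0.75), Edem1 (-0.66), Sdf2l1 (-1.53) and Eif2ak3 (-0.75). The gWAT side rests on the labels, which the Pgam1 level goes against. The summed macrophage, fibroblast and adipocyte markers moved in BAT with the same labels, and their part was not tested.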

How the results depend on the processing

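The count of 8 genes in BAT stayed between 6 (Actb and Rplp0 scaling) and 10 (spike-in scaling) and was 8 without any array. The gWAT count of 1 was 2 with quantile normalization (Atf6 higher, Xbp1 lower), 2 with normexp and quantile normalization (Hsp90b1 and Xbp1 lower), 2 with Actb and Rplp0 scaling (Atf6 and Edem1), 3 with spike-in scaling, 3 in one fit of all 16 arrays, and 0 with median centring, no filter, the slide block, the replicate block and the methods' t-test (where 4 members passed unadjusted, as did 33.0% of all genes tested), and without single arrays 0 to 1. The interaction count of 8 fell to 2 with Actb and Rplp0 scaling and was 6 to 8 otherwise, and the count of 8 between tissues in controls was 6 to 8. Over all genes, calls in gWAT numbered 2525, and 184 with the slide block, 1087 with the replicate block, 1138 with no filter, 1384 with median centring, 1618 by the methods' t-test, 4040 in one fit of all 16 arrays and 5086 with spike-in scaling, of which 95.3% were higher, against 56% by the 75th percentile. Without single arrays they numbered 1080 to 3211: 1080, 1283 and 1144 without the arrays labelled KO replicates 1, 2 and 3, and 1188 and 1581 without control replicates 2 and 3. The interaction gave 7162 calls over all genes, and 3265 with the slide block.

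Samples were not taken as pairs by replicate number, since not every pair of same-numbered arrays correlated above 0.1 and the labels tie no samples by number. The deviations of same-numbered control and KO arrays correlated at 0.0167, 0.133, 0.219 and 0.000354 in BAT and at -0.142, 0.435, -0.0248 and -0.0741 in gWAT. Between BAT and gWAT they were 0.224, 0.157, 0.182 and -0.0726 in controls and 0.108, 0.110, 0.295 and -0.185 under the KO labels. These values were positive for replicates 1 to 3 and negative for replicate 4. BAT control replicate 3 and BAT KO replicate 2 correlated more with a gWAT array of another number. With the replicate block the counts were 8 in BAT, 0 in gWAT, 8 for the interaction and 8 between tissues, and only Atf6 in gWAT changed its call (adjusted p = 0.115).

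Changes of sign were as follows. With Actb and Rplp0 scaling, BAT differences were -0.47 for Dnajb9 (adjusted p = 0.0407), -0.0433 for Eif2ak3 and -0.48 for Herpud1, the Herpud1 interaction was 0.42 and Eif2ak3 between tissues 0.29. With spike-in scaling, gWAT differences were 0.24 for Eif2ak3, 0.36 for Ern1, 0.44 for Herpud1 and 0.32 for Hsp90b1, the Dnajb9 interaction was -0.0512 and Hspa5 between tissues -0.0436. With median centring gWAT Ern1 was 0.0430 and Herpud1 0.12. Quantile normalization gave -0.19 for the Dnajb9 interaction and -0.27 for Hspa5 between tissues, and with normexp these were -0.35 and -0.30 and gWAT Dnajb9 was -0.00915. By probe means Herpud1 was -0.0567 in BAT, 0.21 in gWAT and 0.27 for the interaction. With the slide block Herpud1 was -0.38, 0.19 and 0.57, and gWAT Ern1 0.0445. Without single arrays the range was -0.0631 to 0.28 for Herpud1 in BAT, -0.11 to 0.23 in gWAT and -0.28 to 0.12 for its interaction, -0.20 to 0.0528 for Ern1 in gWAT, -0.0805 to 0.13 for the Dnajb9 interaction and -0.0815 to 0.0185 for Eif2ak3 between tissues. Without both muscle-high KO arrays the Dnajb9 interaction was -0.0484. Of all these values only that of Dnajb9 in BAT passed the threshold. The cause of these shifts was not tested, except that spike-in, median and Actb and Rplp0 scalings move all genes of an array alike.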
